A study of Mus musculus with 7 samples.

Results

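The miR-30 family is the group of mature miRNAs cut from the hairpins miR-30a, miR-30b, miR-30c, miR-30d and miR-30e. Of the 640 mature miRNAs counted in Ago2 immunoprecipitates from mouse plasma, 10 came from these hairpins, 5 from the 5p arm and 5 from the 3p arm, and they were taken by name, whatever their counts. The 5p members were miR-30a-5p, miR-30b-5p, miR-30c-5p, miR-30d-5p and miR-30e-5p. The 3p members were miR-30a-3p, miR-30c-1-3p, miR-30c-2-3p, miR-30d-3p and miR-30e-3p.

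Plasma came from adult male mice, labelled c57, which the study's methods give as C57BL/6JOlaHsd. Status epilepticus (SE) was triggered with kainic acid (KA) placed in the amygdala, followed by a benzodiazepine to limit mortality, and control mice received PBS by the same route. Each of the 7 libraries came from 1 pool of plasma of 10 mice. Control plasma was taken 4 h, 8 h and 24 h after PBS, and SE plasma at these times and at 2 weeks. The 2-week SE library was set against control 24 h, as the study's methods do, so the last 2 comparisons share a control. With 1 library per condition, no difference between an SE library and its control has a replicate check, and in a bulk pool the number of cells that release a miRNA and the amount each releases cannot be told apart.

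A miRNA hairpin is cut into a short duplex of a 5p and a 3p strand. Argonaute proteins such as Ago2 usually keep the guide strand and discard the other, the passenger strand. The guide finds its target mRNAs mainly through the seed, bases 2 to 8 from its 5′ end, so that miRNAs with the same seed are expected to share targets. In the miR-30 family the 5p strand is the usual guide. The family is expressed in many tissues, brain, heart and kidney among them, and is known for repressing genes of autophagy, fibrosis and the mesenchymal state. In the study's list of enriched miRNAs, both arms of miR-30a and miR-30b-5p are assigned to brain, miR-30c-5p to kidney and miR-30d-5p to liver. By cell type, miR-30b-5p is assigned to neurons and miR-30c-5p and miR-30d-5p to astrocytes.

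RefSeq sequences were found for 7 of the 10 members and are shown to make clear which members share a seed and which are hard to tell apart. They are written 5′ to 3′ with the seed in capitals.
miR-30a-5p: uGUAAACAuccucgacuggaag
miR-30e-5p: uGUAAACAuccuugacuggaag
miR-30c-5p: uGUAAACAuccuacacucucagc
miR-30a-3p: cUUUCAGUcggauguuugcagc
miR-30e-3p: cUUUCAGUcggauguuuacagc
miR-30c-1-3p: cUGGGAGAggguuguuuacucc
miR-30c-2-3p: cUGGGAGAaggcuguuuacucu

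The 3 5p sequences shared the seed GUAAACA, and none of the other counted miRNAs with a RefSeq sequence (551 with one in all, members included) had it or either 3p seed. The 3p sequences fell into 2 seed groups, UUUCAGU for miR-30a-3p and miR-30e-3p and UGGGAGA for the 2 miR-30c passenger strands. Counted from the 5′ end, miR-30a-5p and miR-30e-5p differed by C13U alone, and miR-30a-3p and miR-30e-3p by G18A alone. The 2 miR-30c 3p strands differed by G9A, U12C and C22U, miR-30c-1-3p given first. The authors' alignment allowed up to 2 mismatched nucleotides, so the split of reads between miR-30a and miR-30e is uncertain on both arms.

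The hairpins lie in 3 pairs of neighbours on GRCm38. Mir30a (chr1:23272269-23272339, plus strand, in no other annotated gene) and Mir30c-2 (chr1:23291701-23291784, plus strand, overlapping an exon of the lincRNA Gm27028) are 19361 bases apart. Mir30c-1 (chr4:120769534-120769622) and Mir30e (chr4:120772606-120772697) are 2983 bases apart, both in an intron of Nfyc, a subunit of the transcription factor NF-Y, on the minus strand. Mir30b (chr15:68337415-68337510) and Mir30d (chr15:68341208-68341289) are 3697 bases apart on the minus strand, the first in an exon of the processed transcript Gm26621 and the second in exons of Gm37296 and of the lincRNA Gm20732. miR-30c-5p has the same sequence at both of its hairpins and cannot be assigned to either, but its 3p strands can. Arm use in plasma was unlike for miR-30a and for miR-30c, the latter with its hairpins joined. The arm use of Mir30c-2 alone could therefore not be measured. The hairpins of the first pair are shown with both mature strands in capitals.
Mir30a: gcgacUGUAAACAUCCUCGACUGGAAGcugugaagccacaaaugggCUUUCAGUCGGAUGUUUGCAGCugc
Mir30c-2: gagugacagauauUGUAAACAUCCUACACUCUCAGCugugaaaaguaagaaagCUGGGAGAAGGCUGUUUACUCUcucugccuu

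Library totals were between 2043220 counts in control 4 h and 5405357 in SE 4 h. In every library most counts were those of miR-486b-5p, a red cell miRNA, at 62.5% to 76.1%. Other red cell miRNAs had few counts. Over the libraries miR-451a had 3 to 81 and miR-486a-5p 0 to 1, miR-144-3p 0 to 1634 and miR-144-5p 1 to 906. The large share of miR-486b-5p was therefore not matched by the other red cell miRNAs. Levels are given in CPM, counts scaled to library size, after TMM adjustment in edgeR with factors from 0.754 to 1.22. TMM is a trimmed mean of log ratios between libraries. The low counts of a library clustered at a typical value, 102 counts in control 4 h and 33.1 to 60.2 in the others. If each captured molecule was read many times, a member near that typical low count rests on very few molecules. Control 4 h stood apart from the other controls, with 59.3% of the miRNAs tested past 1.5-fold against control 8 h and 69.6% against control 24 h, compared with 45.4% between control 24 h and control 8 h. For the members past 1.5-fold at 4 h, the comparison is therefore also given against controls 8 h and 24 h together.

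The 10 members together held 0.787% (95% Wilson interval 0.775 to 0.800), 1.64% (1.63 to 1.66) and 1.39% (1.38 to 1.41) of the counts in control 4 h, 8 h and 24 h. In the SE libraries, in time order, they held 1.39% (1.38 to 1.40), 1.83% (1.82 to 1.85), 0.951% (0.941 to 0.961) and 1.38% (1.37 to 1.40). The SE and control shares overlapped. Leaving out miR-486b-5p, the shares were 4.29%, 4.89%, 3.98% and 3.77% in SE and 3.29%, 5.05% and 4.22% in control. Intervals cover counting error only, since reads were not counted by molecular identifiers.

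Almost all of the family's counts were guide strands, with 97.0% to 98.2% on the 5p arm in every library. Among the 5p counts miR-30a-5p held 57.8% to 73.9%, miR-30d-5p 16.4% to 24.1% and miR-30e-5p 8.48% to 16.4%. miR-30c-5p held 0.670% to 1.68% and miR-30b-5p 0.0529% to 1.51%. Over the 7 libraries the ranges of miR-30a-5p, miR-30d-5p and miR-30e-5p did not overlap in level, so their order was the same in each. The ranges of miR-30c-5p and miR-30b-5p overlapped. Adapter ligation favours some ends over others, so an order between members describes these libraries.

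**Figure D1:**
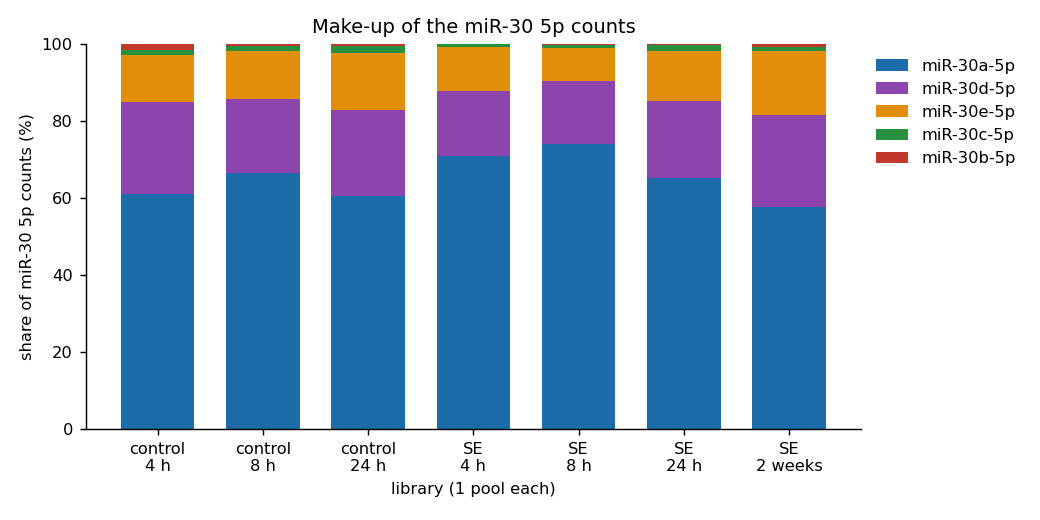
Stacked bars give the share (%) of the miR-30 5p counts taken by each 5p member in the 7 libraries, control on the left and SE on the right. miR-30a-5p is the largest part in each, from 57.8% in SE 2 weeks to 73.9% in SE 8 h.

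**Figure D2:**
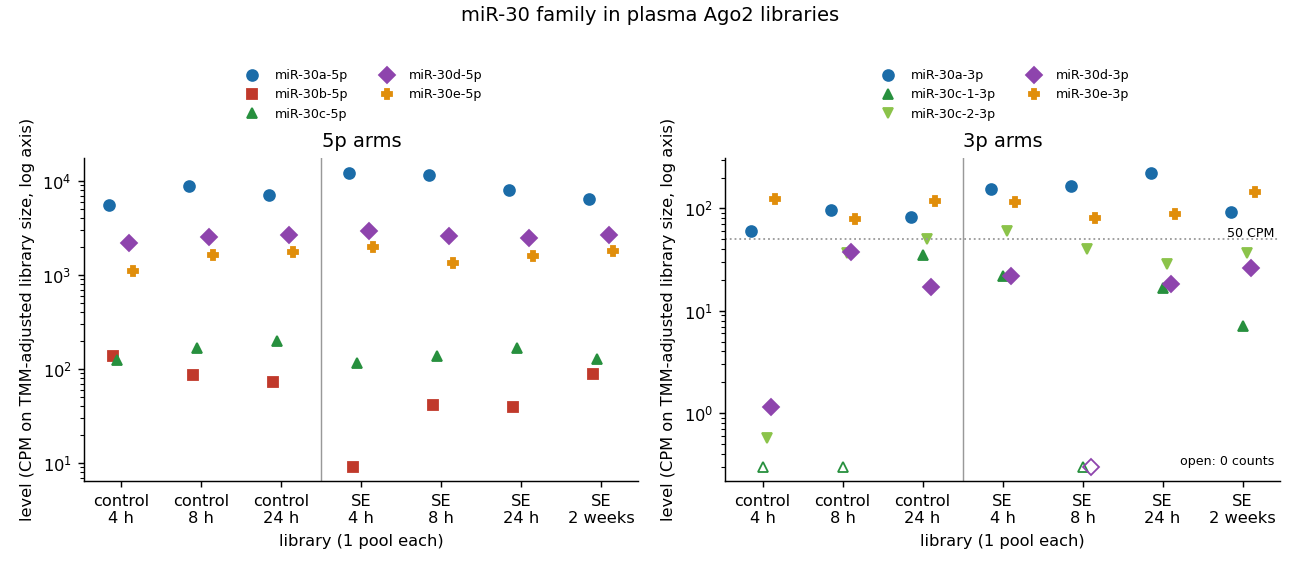
Level (CPM on TMM-adjusted library size, log axis) of each member in the 7 libraries, 5p arms on the left and 3p arms on the right, 1 point per library. Open symbols mark 0 counts and the dotted line 50 CPM. miR-30b-5p falls to 9.16 CPM in SE 4 h, and miR-30a-3p is above every control in the 3 earlier SE libraries.

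miR-30a-5p, the guide strand known to repress the autophagy gene Becn1, was the most abundant member. It stood at 5513, 8763 and 7103 CPM in control 4 h, 8 h and 24 h, and at 12270, 11572, 7979 and 6409 CPM in the SE libraries in time order. Over 4 h, 8 h and 24 h the means were 7127 ± 1625 CPM in control and 10607 ± 2303 CPM in SE (SD, n = 3 libraries of different times). With TMM scaling, SE 4 h and SE 8 h were above every control, while SE 24 h and SE 2 weeks lay within the control range. With library size only, SE 4 h was below control 8 h. The log2 fold changes against the matched controls were, in time order, 1.15, 0.40, 0.17 and -0.15. Only the value at 4 h was past 1.5-fold. Set against controls 8 h and 24 h together, in place of control 4 h, it was past 1.5-fold as well.

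With TMM scaling, miR-30d-5p was among the steadiest miRNAs in the data. Its range and rank were not computed with another scaling. Its level was 2182, 2547 and 2634 CPM in the controls and 2913, 2573, 2446 and 2651 CPM in SE, in time order. The highest library was 1.33 times the lowest, a smaller range than all but 1 of the 130 miRNAs that reached 50 CPM in 4 libraries or more, whose median range was 2.80-fold. The control and SE libraries overlapped, and no comparison passed 1.5-fold with TMM scaling. With library size only, it was past 1.5-fold lower at 24 h, where that scaling moved the median log2 fold change of all miRNAs tested from 0.04 to -0.64.

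miR-30e-5p, which differs from miR-30a-5p by a single base, was at 1089, 1638 and 1746 CPM in the controls. In SE it was at 2005, 1328, 1603 and 1817 CPM. The groups overlapped, but SE 8 h and SE 24 h were both below control 8 h and control 24 h. It was past 1.5-fold at 4 h alone (log2 fold change 0.88), and against controls 8 h and 24 h together it was not.

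miR-30b-5p, the neuron-assigned member, was lower in each of the 3 earlier SE libraries than in every control. It had 238, 370 and 284 counts in control 4 h, 8 h and 24 h, that is 137, 85.8 and 72.0 CPM. In SE it had 39, 152, 110 and 274 counts in time order, that is 9.16, 41.7, 39.2 and 88.8 CPM. The means were 98.12 ± 34.02 CPM in control and 30.04 ± 18.13 CPM in SE over 4 h, 8 h and 24 h (SD, n = 3). The groups did not overlap from 4 h to 24 h, and the 2-week library was back within the control range. The log2 fold change was -3.89 at 4 h (14.9-fold lower), then -1.04 and -0.87 at 8 h and 24 h, all past 1.5-fold, and at 2 weeks it was 0.30. Against controls 8 h and 24 h together it was -3.10 at 4 h. Its 39 counts in SE 4 h were close to the typical low count of that library, 37.6, and without both 4 h libraries the fold change over 8 h and 24 h was -0.96 on the log2 scale.

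Its neighbour on chromosome 15 did not follow it. The ratio of miR-30d-5p to miR-30b-5p counts, which does not depend on the scaling of the libraries, was 15.97, 29.7 and 36.6 in the controls. It was 318, 61.6 and 62.3 in SE 4 h, 8 h and 24 h, each above every control, and 29.9 in SE 2 weeks. As miR-30d-5p was steady with TMM scaling, the ratio largely restates the miR-30b-5p values. The value of SE 4 h rests on 39 counts of miR-30b-5p. The share of all pairs of miRNAs that separate in this way was not computed.

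miR-30c-5p was at 126, 165 and 197 CPM in the controls and at 116, 137, 168 and 127 CPM in SE, in time order. The groups overlapped. The value at 2 weeks was past 1.5-fold lower (log2 fold change -0.64 against control 24 h), but its direction turned against control 4 h, at 0.011.

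Of the passenger strands, miR-30a-3p was the member that was higher in all 3 earlier SE libraries than in every control. It had 104, 417 and 328 counts in control 4 h, 8 h and 24 h, that is 59.7, 96.7 and 83.1 CPM. In SE it had 657, 606, 627 and 285 counts in time order, that is 154, 166, 224 and 92.3 CPM. Over 4 h, 8 h and 24 h the mean was 79.8 ± 18.7 CPM in control and 181 ± 37.0 CPM in SE (SD, n = 3). SE 2 weeks fell within the control range. The log2 fold changes in time order were 1.37, 0.78, 1.43 and 0.15, with the first 3 past 1.5-fold. At 4 h the value was 0.78 against controls 8 h and 24 h together, and at 24 h it was 0.81 with library size only. The groups of the earlier time-points also did not overlap with DESeq2's size factors, without TMM factors or without both 4 h libraries. Its count in control 4 h was 1.02 times the typical low count there.

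miR-30e-3p was at 124, 78.2 and 117 CPM in the controls and at 114, 79.9, 87.4 and 145 CPM in SE, in time order. These overlapped, and no comparison with the matched control passed 1.5-fold with TMM scaling. With library size only, the SE libraries of 4 h, 8 h and 24 h were all below the controls. When the 3p counts of miR-30a and miR-30e were added together, because of the single base between them, the sum was 184, 175 and 200 CPM in the controls. It was 268, 246, 311 and 237 CPM in SE, all above every control with TMM scaling. With library size only, a scaling added for this sum after seeing the data, it was 157, 214 and 231 CPM in the controls and 211, 283, 235 and 288 CPM in SE, and the groups overlapped.

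The other 3p strands were at or below 60.1 CPM. miR-30c-2-3p had 1, 158 and 198 counts in control 4 h, 8 h and 24 h and 256, 147, 81 and 112 counts in SE, in time order. The 4 h ratio was 105-fold, with an exact counting interval of 18.6 to 4154, which covers counting of reads only. The 256 counts of SE 4 h were 6.81 times the typical low count there. At 24 h miR-30c-2-3p was 1.74-fold lower in SE. Against controls 8 h and 24 h together, its 4 h value was not past 1.5-fold.

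miR-30c-1-3p had 93 counts in SE 4 h and 0 in control 4 h, at least 12.7-fold higher, computed against 3 counts there. Its 93 counts were 2.47 times the typical low count of SE 4 h. Its 21.8 CPM in SE 4 h lay below the 35.2 CPM of control 24 h. It had 0 counts in both 8 h libraries and 139 counts in control 24 h. The later SE libraries had 47 and 22. miR-30d-3p had 2, 163 and 67 counts in the controls and 92, 0, 51 and 81 counts in SE. At 8 h it was at least 45.9-fold lower in SE, computed against 3 counts, a bound that covers counting of reads only. Its 163 counts in control 8 h were 2.71 times the typical low count there. At 4 h the ratio was 18.8-fold with a counting interval of 5.07 to 158. That ratio rests on the 2 counts of control 4 h, and against controls 8 h and 24 h together the log2 fold change was -0.35. Both stayed under 50 CPM in every library and were not tested.

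**Figure D3:**
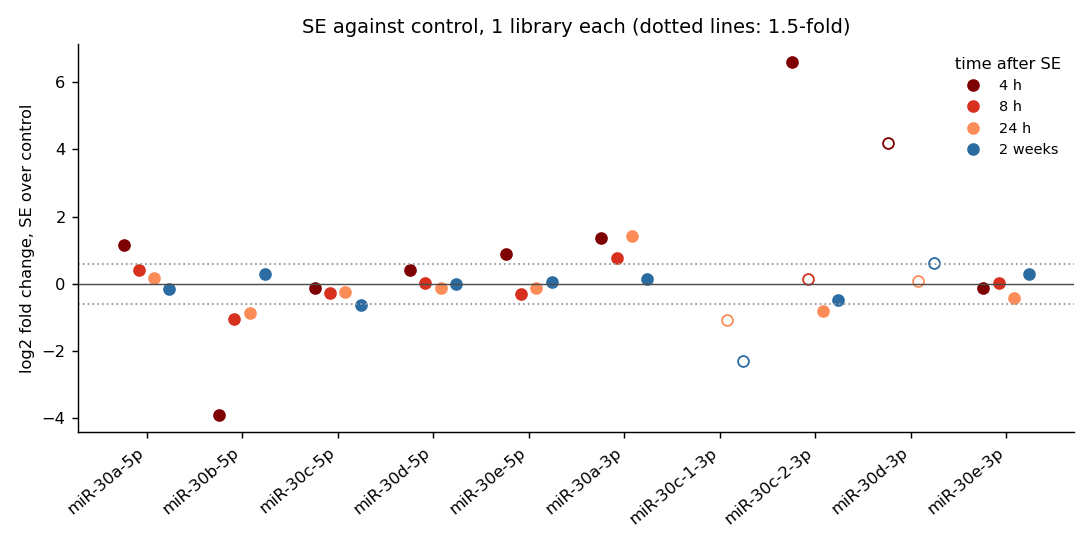
Log2 fold change of SE over control (vertical axis) for the 10 members, with 1 point per time-point and dotted lines at 1.5-fold; open points were under 50 CPM in both libraries, and values against 0 counts are left out. miR-30b-5p is below the lower line and miR-30a-3p above the upper line at 4 h, 8 h and 24 h, and both lie between the lines at 2 weeks.

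The number of members past 1.5-fold, among those with at least 50 CPM in either library, was set beside the share of all miRNAs tested. At 4 h, 5 of 8 members were past 1.5-fold, against 67.2% of all 189 miRNAs. Of these, 4 were higher (32.3% of all miRNAs) and 1 was lower (34.9%). Against controls 8 h and 24 h together 4 of 8 were past it, miR-30a-5p and miR-30a-3p higher and miR-30b-5p and miR-30c-5p lower, as were 76 of 152 miRNAs. At 8 h, 2 of 7 were past it, against 50% of 154, with 1 higher (35.1%) and 1 lower (14.9%). At 24 h, 3 of 8 were past it, against 44.7% of 141, with 1 higher (24.8%) and 2 lower (19.9%). At 2 weeks, 1 of 8 was past it, a lower one (13.1%), and 0 were higher (18.6%), against 31.7% of 145 in either direction. The members' median log2 fold change was 0.65, 0.01, -0.17 and 0.03 at the 4 time-points, and that of all miRNAs tested was -0.06, 0.23, 0.04 and 0.01. The members' shares at 4 h and 24 h lay near the background, and those at 8 h and 2 weeks below it. With 7 or 8 members tested, these gaps rest on few members. Other settings moved the 2-week count between 0 and 3.

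The controls show what differs without SE. Between control 24 h and control 8 h, 0 of 8 members were past 1.5-fold, where 26.2% of all miRNAs were higher and 19.1% lower. In control 8 h against control 4 h, 3 of 7 members were higher (15.3% of all miRNAs) and 2 lower (44.1%). In control 24 h against control 4 h, 3 of 8 were higher (26.5%) and 1 lower (43.1%). miR-30b-5p was lower in both.

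Taking the libraries up to 24 h together, 3 SE were tested against 3 control libraries by edgeR's quasi-likelihood method. The Benjamini-Hochberg adjustment ran over 137 miRNAs, those reaching 50 CPM in 3 or more of these 6 libraries. Each side mixes time-points, so its spread holds the change over time as well as that between pools. Of these miRNAs, 0.00% had an adjusted p under 0.05, and 17 (12.4%), miR-30a-3p among them, had an unadjusted p under 0.05. DESeq2's Wald test called 4 and edgeR's likelihood ratio test 3, and 0 of these were members.

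In that comparison miR-30a-3p had a log2 fold change of 1.18 with a standard error of 0.51 (quasi-likelihood adjusted p = 0.380), and it was higher in SE at 3 of 3 time-points. miR-30b-5p had -1.71 with a standard error of 0.88 (adjusted p = 0.518) and was lower at 3 of 3. miR-30a-5p had 0.57 with a standard error of 0.27 (adjusted p = 0.509) and was also higher at 3 of 3 with TMM scaling. With library size only, its log2 fold change at 24 h was -0.45. The other 4 members tested, miR-30c-5p, miR-30d-5p, miR-30e-5p and miR-30e-3p, were between -0.21 and 0.14. Of these, miR-30c-5p was lower at 3 of 3 as well. The share of all miRNAs with the same direction at 3 of 3 was not computed. None passed the test. Groups that did not overlap were found for 2 of the 7 members and for 16.8% of all miRNAs, with all SE libraries above the controls for 9.49% and below them for 7.30%.

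The ratio of 5p to 3p counts of a hairpin compares strands within a library and needs no scaling. For miR-30a it was 92.4, 90.6 and 85.5 in control 4 h, 8 h and 24 h. It was 79.5, 69.5, 35.7 and 69.4 in SE, in time order, lower in all 4 SE libraries than in every control. The 3p strand thus made up 1.07% (95% Wilson interval 0.885 to 1.30), 1.09% (0.992 to 1.20) and 1.16% (1.04 to 1.29) of the hairpin's counts in the controls. In SE it made up 1.24% (1.15 to 1.34), 1.42% (1.31 to 1.53), 2.73% (2.52 to 2.94) and 1.42% (1.27 to 1.59).

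Over 4 h, 8 h and 24 h the mean log2 ratio of miR-30a was 6.48 in control and 5.86 in SE, a difference of -0.62. The two-sided exact permutation test over 3 against 3 libraries gave p = 0.1, the smallest it can give, and an adjusted p of 0.711 over the 64 hairpins tested. All 4 SE libraries against the 3 controls gave a difference of -0.55 and an exact p of 0.0571, again the smallest possible. The ranges did not overlap for 14.1% of the hairpins over the 6 libraries and for 6.25% over all 7. Without SE 24 h the difference over the earlier time-points was -0.26. With the arms of miR-30a and miR-30e added together, the ratios were 36.0, 59.5 and 44.2 in the controls and 53.2, 52.4, 30.8 and 34.6 in SE, and they overlapped. The 3p counts of miR-30e relative to those of miR-30a were 2.08, 0.808 and 1.41 in the controls, 0.740, 0.480 and 0.391 in the 3 earlier SE libraries and 1.57 in SE 2 weeks.

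miR-30e had the steadiest arm ratio after 4 other hairpins of the 64, by its range on the log2 scale. It was 8.79, 20.96 and 14.9 in the controls and 17.6, 16.6, 18.4 and 12.5 in SE, with overlap. The mean log2 ratio over 4 h, 8 h and 24 h differed by 0.32 (exact permutation p = 0.6, adjusted p = 0.931), and without control 4 h by -0.015.

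miR-30c stood out for the evenness of its arms. With both 3p strands added, its ratio was 4.51 and 2.31 in control 8 h and 24 h and 1.42, 3.40, 3.69 and 2.92 in SE. Control 4 h had 219 counts on the 5p arm and 1 on the 3p arm. The 3p strands made up between 18.1% (95% Wilson interval 15.7 to 20.8) and 41.4% (38.1 to 44.8) of the hairpin's counts in the other 6 libraries. Where both 3p strands had more than 3 counts, miR-30c-2-3p of chromosome 1 was 1.42 to 5.09 times miR-30c-1-3p of chromosome 4. The log2 ratio differed by -2.14 between SE and control (exact permutation p = 0.4, adjusted p = 0.931), by -0.31 without control 4 h and by 0.13 without either 4 h library.

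miR-30d had the most one-sided arms of the 4 hairpins when counts were summed over the libraries. The ratio was 67.4 and 155 in control 8 h and 24 h, and 135, 134 and 101 at 4 h, 24 h and 2 weeks of SE. Control 4 h had 2 counts and SE 8 h 0 counts on the 3p arm against 3802 and 9370 on the 5p arm. For SE 8 h the Wilson interval of the 3p share reached 0.0410%, but it covers counting of reads only. The typical low count of that library was 51.9. The mean log2 ratio differed by 1.47 (exact permutation p = 0.7, adjusted p = 0.931), and without SE 8 h by -0.91.

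**Figure D4:**
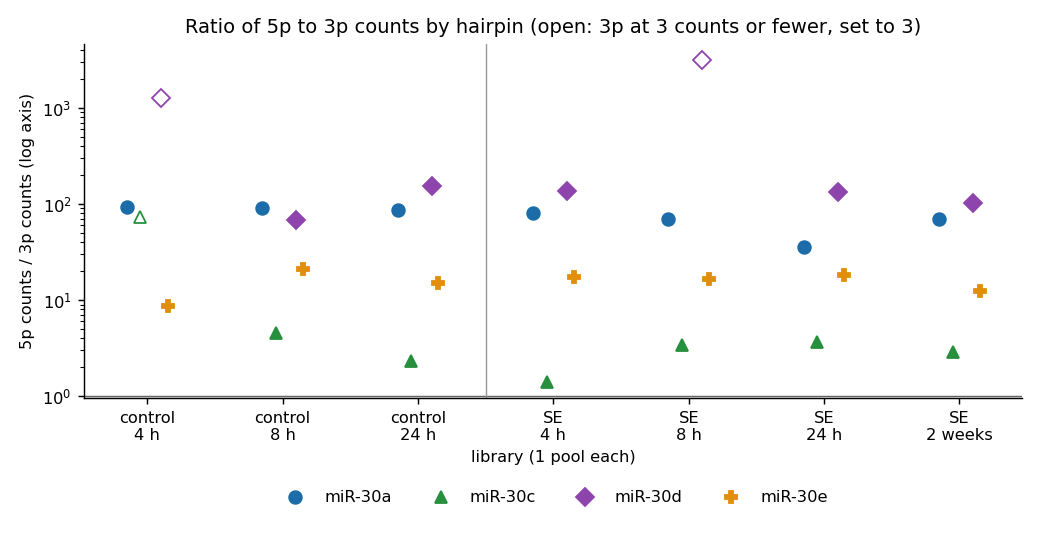
Ratio of 5p to 3p counts (log axis) of the miR-30a, miR-30c, miR-30d and miR-30e hairpins in the 7 libraries. Open symbols have 3 or fewer 3p counts, set to 3; miR-30a lies between 85.5 and 92.4 in the controls and between 35.7 and 79.5 in SE.

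Among the 64 hairpins compared, the 5p arm led in 34. The less abundant arm held a median of 2.40% of a hairpin's counts, with quartiles of 0.578% and 7.32%. Summed over the 7 libraries this share was 1.41% for miR-30a, 0.730% for miR-30d, 5.94% for miR-30e and 26.0% for miR-30c. Of the 64 hairpins, 60 had a lower share than miR-30c.

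**Figure D5:**
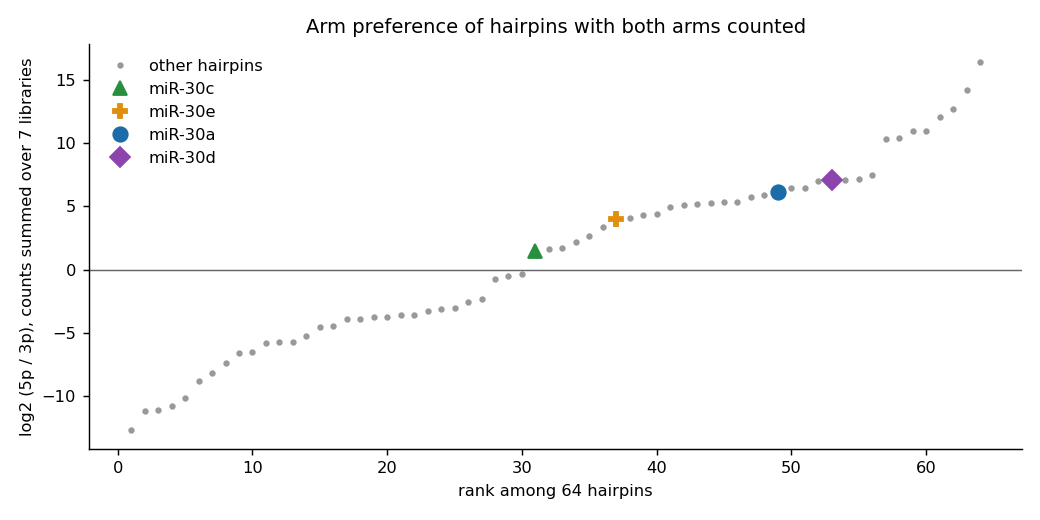
Log2 ratio of 5p to 3p counts, summed over the 7 libraries, for 64 hairpins in rank order, with the 4 miR-30 hairpins marked. All 4 lie on the 5p side; miR-30d is the most one-sided of them and miR-30c the closest to 0.

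The miRNAs most like miR-30a-3p over the 7 libraries, by Pearson correlation of log2 level among 123 other miRNAs, were miR-192-5p (r = 0.93), miR-532-5p (0.90), miR-25-3p (0.85), miR-182-5p (0.82) and miR-298-5p (0.79), where the median miRNA had 0.12. Those most like miR-30a-5p were miR-29a-3p (0.92), miR-152-3p (0.91), miR-182-5p (0.89), miR-101a-3p (0.85) and miR-192-5p (0.78), with a median of 0.06. These are descriptions over 7 points that share the library scaling and the time of sampling.

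Of 6 lists of marker miRNAs, 2 were higher in all 4 SE libraries than in every control with TMM scaling. Without the TMM factors (1.22 in control 8 h, 0.754 in SE 24 h), SE 24 h was below control 8 h for both. The share of all miRNAs higher in all 4 SE libraries was not computed. At 2 weeks the liver list was at 15248 CPM and the kidney and epithelium list at 11050 CPM. Their highest controls were at 14454 and 8915 CPM. miR-30a-3p was then at 92.3 CPM, near the top of its control range of 59.7 to 96.7 CPM. The liver list (3 of 3 listed) summed to 12050 to 14454 CPM in the controls and to 15248 to 22466 CPM in SE. It was almost wholly miR-192-5p. Of its other members, miR-122-5p, the defining liver miRNA, had 0 counts in all 3 controls and at most 59 in an SE library. miR-194-5p was at 0, 0 and 11.4 CPM in the controls and at 36.2, 38.2, 37.8 and 0 CPM in SE, in time order. The kidney and epithelium list (4 of 5 listed) summed to 8175 to 8915 CPM in the controls and to 10569 to 20763 CPM in SE, almost wholly miR-10a-5p, which the study lists as ubiquitous. Its epithelial members overlapped, with miR-200a-3p at 0.574 to 45.1 CPM in control and 23.5 to 31.02 CPM in SE, and miR-141-3p at 66.1 to 170 CPM and 81.6 to 237 CPM. Control and SE ranges overlapped for the erythrocyte (5 of 5 listed), platelet and leukocyte (4 of 4), muscle (1 of 3) and brain (5 of 5) lists. The brain list was mostly miR-128-3p, at 1072 to 2273 CPM in the controls and 1181 to 1953 CPM in SE. In this list miR-132-3p was at 0 CPM in the 3 controls and in SE 2 weeks. It was at 46.0, 46.4 and 13.6 CPM in SE 4 h, 8 h and 24 h. For miR-9-5p control and SE overlapped, and miR-124-3p was at 0 counts in 6 of 7 libraries. The part of any of these in the miR-30 results was not tested.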

How the data were processed

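Ago2 was immunoprecipitated from pooled mouse plasma and its small RNA sequenced. The authors removed adapters, kept reads of miRNA length and aligned them by BLASTn to mouse miRBase V21 with up to 2 mismatches, in Chimera (version not given in the sources used here). The table they deposited holds a raw read count, not normalised, for 640 mature miRNAs in 7 libraries, and 0 other columns of sample values.

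From these counts, levels were computed in Python 3.11.15 and scaled by TMM over all 7 libraries in edgeR 4.0.16 (R 4.3.3). Log2 fold changes used a prior count of 0.125. A member was tested with at least 50 CPM in either library and called past 1.5-fold, with no p-value. SE and control at 4, 8 and 24 h were compared by edgeR's quasi-likelihood test. Its standard error is the log2 fold change divided by the square root of F. Arm ratios had 0.5 added to each count for logs and were compared by exact permutation tests in scipy 1.17.1. The typical low count is the mode of a kernel density (bandwidth 0.15, natural log) of counts from 6 to 300. A count of 3 was the floor for lower bounds, 0.555 CPM in SE 4 h to 1.47 CPM in control 4 h. Sequences are from RefSeq (GRCm38.p6), loci from GENCODE M21 of GRCm38.

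All miR-30 members listed are named, with the 5 other miRNAs most like miR-30a-5p and miR-30a-3p. The members, marker lists and tests were chosen with earlier results of these data known. DESeq2 1.42.0, other scalings, filters, thresholds and controls were alternatives.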

Additional observations from a re-analysis of the deposited data

Results flagged for a closer look

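miR-30c-2-3p moved past 1.5-fold in opposite directions at 2 time-points, 6.61 at 4 h and -0.80 at 24 h as log2 fold changes. It had 256 counts in SE 4 h against 1 in control 4 h, and 81 in SE 24 h against 198 in control 24 h. Against controls 8 h and 24 h together the 4 h value was 0.47. At 24 h it entered the test through control 24 h, at 50.2 CPM against the limit of 50 CPM. The 24 h call was absent with DESeq2's size factors, with TMM over the 2 libraries and with pooled controls. With 1 library a condition, the difference between the time-points was not tested.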

How the results depend on the processing

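The number of members past 1.5-fold at 4 h was 5, and 3 with at least 50 CPM required in both libraries. At 8 h it was 2, and 1 with that filter or with a 2-fold limit. At 24 h it was 3, but 7 with library size only, and 1 with the stricter filter or the 2-fold limit. At 2 weeks it was 1. It was 3 without a filter or against control 4 h, and 0 with library size only, with the 2-fold limit, against the 3 controls pooled or against controls 8 h and 24 h pooled. The calls of miR-30a-3p were made under all these settings except the 2-fold limit at 8 h. Those of miR-30b-5p were lost under the stricter filter, which left it out, and under the 2-fold limit at 24 h. edgeR's exact test at a preset BCV of 0.1 gave the same counts.

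In the 3 against 3 comparison no member was called under any of the 14 alternatives, the time point as a block included. The adjusted p of miR-30a-3p was between 0.332 and 0.859 over them and that of miR-30b-5p between 0.304 and 0.978 over 11. The log2 fold change of miR-30a-3p was 0.56 with miR-30e-3p added. The direction turned for miR-30d-5p with library size only (-0.18) and without both 4 h libraries (-0.046). It turned for miR-30e-5p with library size only (-0.20), without both 4 h libraries (-0.21) and, leaving out single libraries, over a range of -0.040 to 0.27. For miR-30c-5p at 2 weeks it turned against control 4 h (0.011).

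The arm ratio difference of miR-30a kept its direction under every alternative, from -0.84 to -0.26 leaving out single libraries, but was -0.046 with miR-30e added and -0.091 with all members summed. For miR-30e it turned under those settings (-0.046 and -0.091), without both 4 h libraries (-0.019) and without control 4 h (range -0.015 to 0.61 leaving out single libraries). For miR-30d it turned with all members summed (-0.091) and without SE 8 h (range -0.91 to 2.77). For miR-30c it turned without both 4 h libraries (0.13), with a range of -3.30 to -0.31 leaving out single libraries. Where a setting removes libraries or members, that is its own construction, and elsewhere the cause was not tested. Pooling controls 8 h and 24 h, leaving out both 4 h libraries and adding miR-30a to miR-30e were chosen after seeing the data. The limits are 1 library a condition and low 3p counts, none above 657 in a library.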
